A study of Hydra viridissima with 2 samples.

Results

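Well expressed intronless genes of the green hydra, Hydra viridissima, were taken as the gene models whose coding sequence lies in a single uninterrupted interval and whose mean level over both libraries was at least 30 CPM, that is, counts scaled to a library total of 1000000. Of 34573 gene models, 251 met this rule. Models on scaffold 60 and models with a length shared by 100 or more single-interval models were left out. The members were thus chosen by their mean level in the same 2 libraries, and their levels are given as a description.

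Whole polyps of clone 2 were profiled by RNA sequencing after ribosomal RNA had been removed enzymatically. There was 1 library from green, alga-bearing polyps (symbiotic) and 1 from polyps without the alga (aposymbiotic), each made from a pool of about 200 large animals. Both cultures were kept at 24 °C, fed on brine shrimp and harvested 2 to 3 days after a meal, and the RNA integrity number was 10 in both. The sources used here do not say how the aposymbiotic polyps were obtained. All animals came from 1 clone, and each library is a pool. Because each condition had a single library, no test or replicate check was possible, and each difference is one between these 2 libraries. A difference in cell composition and a difference in RNA per cell cannot be told apart in whole-polyp RNA.

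Most animal genes are split by introns, which are cut out of the transcript by splicing. Intronless genes can arise when a processed transcript is copied back into the genome, or by duplication of a gene that already lacks introns; the replication-dependent histones and many G protein-coupled receptors of vertebrates are known examples. In green hydra, the algae live inside the gastrodermal epithelial cells and release sugar to the host. The identifiers are not paired with gene names in the files, so no function is assigned to any model and the genes are given by scaffold and position. The sources used here name no genome build.

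The symbiotic library held 6905650 read pairs on gene models and the aposymbiotic library 5533508. Every one of the 251 coding lengths was a multiple of 3, so the models appear to hold no untranslated regions, and introns outside the coding sequence would not be seen. At the same minimum level there were 21 further models outside scaffold 60 whose several intervals overlap and join into 1 uninterrupted block. They lack a coding intron too but were not members, and they remain among the 5402 models with 2 or more intervals that are used below as the comparison.

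Single-interval models were common in the annotation and rare among well expressed genes. They made up 53.4% of all models, and the 251 members were 4.44% of the 5659 models of at least 30 CPM. Without scaffold 60, 45.1% of single-interval models had no count in either library and 1.39% reached 30 CPM before the shared lengths were left out. Among models with 2 or more intervals, 9.31% had no count and 33.6% reached 30 CPM. Counting left out read pairs that aligned to several places, which can lower the count of a model with near-identical copies. Of all counts, the members held 2.56% in the symbiotic library (95% exact binomial interval 2.55 to 2.58) and 2.53% in the aposymbiotic library (2.52 to 2.54). Intervals cover counting error only.

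Between the members, levels were uneven. The median was 50.6 CPM, 123 members lay under 50 CPM, 44 reached 100 CPM and 5 reached 1000 CPM, a level met by 106 models of the whole annotation. The 5 most abundant members held 29.7% of all member counts in the symbiotic library (29.5 to 29.9) and 27.9% in the aposymbiotic library (27.7 to 28.1). The most abundant intronless gene, a model of 873 nt on scaffold 4 (15988343 to 15989215, plus strand), had 14899 symbiotic and 11396 aposymbiotic counts. These are 2158 CPM in the symbiotic and 2059 CPM in the aposymbiotic library. Its log2 ratio of symbiotic over aposymbiotic was 0.08 (95% counting interval 0.04 to 0.12), so its level was close to equal in both polyp states. The second, of 522 nt, is the only model on scaffold 155 (7852 to 8373, plus strand). It had 13161 symbiotic and 10190 aposymbiotic counts, which put its log2 ratio at 0.06 (0.02 to 0.10). A model of 429 nt on scaffold 4 (4707187 to 4707615, minus strand) had 8110 symbiotic and 7024 aposymbiotic counts and a log2 ratio of -0.10 (-0.15 to -0.05).

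The next 2 by abundance, both on scaffold 12, had modestly higher levels in symbiotic polyps. A model of 1665 nt (6979511 to 6981175, minus strand) had 8510 symbiotic and 5269 aposymbiotic counts, a 1.31-fold difference (1.26 to 1.35). A model of 750 nt (14850918 to 14851667, plus strand) had 7931 symbiotic and 5171 aposymbiotic counts, a log2 ratio of 0.31 (0.26 to 0.36). They were followed by models of 420 nt on scaffold 1 (35144269 to 35144688) and 528 nt on scaffold 13 (5762619 to 5763146), with log2 ratios of -0.04 and -0.12. The next, of 2337 nt on scaffold 2 (7536721 to 7539057), had a log2 ratio of 0.12. Summed over all members, the log2 ratio of the counts was 0.03 (0.02 to 0.04). Without the 5 members of at least 1000 CPM it was -0.01 (-0.02 to 0.01), and for those 5 alone it was 0.12 (0.10 to 0.14). Summed over the 5402 comparison models, the log2 ratio was also above 0, at 0.016 (0.014 to 0.017).

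Intronless genes of this level were shorter than genes with several intervals. The median coding length was 1164 nt among members and 1914 nt among the 5402 comparison models. Lengths of 2000 nt or more were held by 48 members: 42 were under 5000 nt, 16.7% of all members, and 6 had 5000 nt or more, 2.39%. The shares of the comparison models in these classes were 37.8% and 9.37%. At the short end, 32 members (12.7%) had 300 to under 600 nt, against 5.13% of the comparison models, and 65 (25.9%) had 600 to under 1000 nt, against 10.7%. The largest class, 104 members, ran from 1000 to under 2000 nt. The rule uses CPM, which counts more reads from a longer transcript, so short genes needed a higher level per length to enter.

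Per kilobase of coding length, members had a median of 42.4 CPM per kb and the comparison models 38.0 CPM per kb. Within each length class from 300 nt upward the order was the other way round. Between 600 and 1000 nt the medians were 67.6 CPM per kb for members and 75.9 CPM per kb for comparison models, and between 2000 and 5000 nt they were 18.8 and 27.5 CPM per kb. In the shortest class, under 300 nt, there were 2 members. Per length, the model on scaffold 155 was the highest member, at 3589 CPM per kb. The 429 nt model on scaffold 4 followed at 2848 CPM per kb, the 873 nt model on that scaffold at 2415, the 420 nt model on scaffold 1 at 1753 and the 750 nt model on scaffold 12 at 1389. Across members, Spearman's rho between coding length and mean CPM was -0.0281, and it was 0.234 across the comparison models; these are descriptions across genes, which share the 2 libraries.

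**Figure D1:**
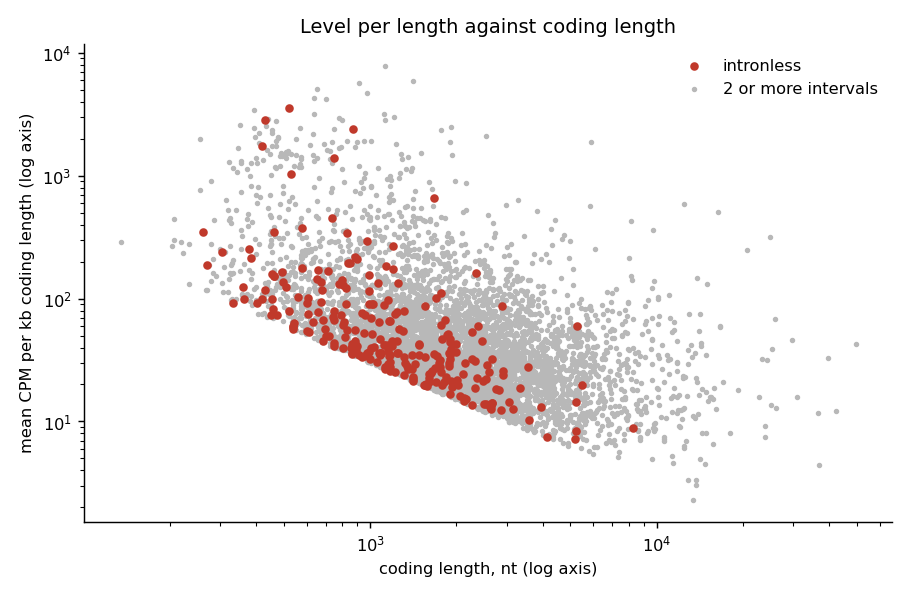
Mean CPM per kb of coding length (log axis) against coding length in nt (log axis) for 251 intronless models (red) and 5402 models with 2 or more intervals (grey), each point a gene model. The straight lower edge is the minimum of 30 CPM; the members end at 8280 nt, whereas the grey points reach 49516 nt.

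The extremes of length were not the extremes of level. The longest member, of 8280 nt on scaffold 13 (11478587 to 11486866, plus strand), had 544 symbiotic and 370 aposymbiotic counts and 8.79 CPM per kb. Scaffold 13 also carried the next 2 by length, of 5472 nt and 5256 nt (9818906 to 9824161); the 5256 nt model had 2096 symbiotic and 1798 aposymbiotic counts. The shortest, of 261 nt on scaffold 8 (6089353 to 6089613, plus strand), had 507 symbiotic and 593 aposymbiotic counts, and models of 270 nt on scaffold 7 (12423062 to 12423331) and 303 nt on scaffold 11 (1700837 to 1701139) followed. Just inside the minimum lay models on scaffolds 6, 11 and 7 with means of 30.01, 30.13 and 30.30 CPM. Just outside it were models on scaffolds 14, 6 and 13 with 29.9, 29.8 and 29.8 CPM.

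The members were spread over the genome and over both strands. They lay on 19 of the 105 scaffolds that carry models, 129 on the plus and 122 on the minus strand. On the 14 scaffolds with at least 100 models of this level, which carried 246 members, members made up from 3.23% of those models on scaffold 14 to 6.37% on scaffold 13. The median log2 ratio of members ran from -0.13 on scaffold 8 (12 members) to 0.15 on scaffold 14 (5 members). In all, 15 neighbouring pairs of members lay within 50 kb of each other. Some of these pairs had log2 ratios of the same sign and others of opposite sign.

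With and without the alga, most intronless genes had similar levels. The median log2 ratio of symbiotic over aposymbiotic was 0.03 among members, 0.01 among the comparison models and -0.0012 among the 16162 models with a mean of at least 1 CPM. Of the members, 234 (93.2%) had a log2 ratio between -0.5 and 0.5, against 97.3% of the comparison models. The counting interval excluded equality for 87 members, 44 higher and 43 lower in the symbiotic library. That was 34.7% of the members, against 32.4% of the comparison models. By direction, 17.5% of members were higher and 17.1% lower, against 18.6% and 13.8% of the comparison models. With an interval that excluded equality, 0 members reached 2-fold higher and 4 members reached 2-fold lower in symbiotic polyps, 0% and 1.59% of the members. By the same rule 0.891% of the 16162 models were higher and 1.48% lower, and among the 5659 models of at least 30 CPM the shares were 0.124% and 0.442%. At 1.5-fold, 5 members were higher and 7 lower, 1.99% and 2.79%. The background at 1.5-fold was 2.13% higher and 3.01% lower over the 16162 models, and 0.689% and 1.25% over those of at least 30 CPM. Among the comparison models alone, 0.13% were higher and 0.389% lower at 2-fold, and 0.629% and 1.17% at 1.5-fold. Single-interval models of 1 to under 30 CPM, with fewer counts each, were past 2-fold in 1.27% (higher) and 2.85% (lower) and past 1.5-fold in 2.47% and 4.24%. The share of members past 1.5-fold was thus near that of all models tested and above that of models of like level, a difference that was not tested.

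The ratios of members were also more scattered than those of comparison models at each level. The spread of the log2 ratio, as a standard deviation from the median absolute deviation, was 0.228 among the 123 members of 30 to under 50 CPM and 0.195 among comparison models. From 50 to under 100 CPM the values were 0.207 for 84 members and 0.169 for comparison models, and from 100 CPM they were 0.219 for 44 members and 0.159 for comparison models. The standard deviation that counting error gives was alike in both kinds, 0.137 and 0.133 in the lowest class and 0.0640 and 0.0612 in the highest. Members past 1.5-fold in either direction were 2 of 123, 6 of 84 and 4 of 44 in the 3 classes, that is 1.63%, 7.14% and 9.09%, against 1.75%, 2.05% and 1.59% of the comparison models. Length was not matched in these classes, and members were shorter. From 300 to under 600 nt, the 5th and 95th percentiles of the log2 ratio were -0.31 and 0.21 for 32 members. For comparison models of that length they were -0.34 and 0.29, a wider range. In the other length classes the range was wider among members, of which only 2 were under 300 nt and 6 had 5000 nt or more. Level was not matched in these length classes. In each class from 300 nt upward members had the lower median level, such as 50.96 against 79.15 CPM between 2000 and 5000 nt. Genes are not replicates, and the intervals do not cover the scatter beyond counting error.

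**Figure D2:**
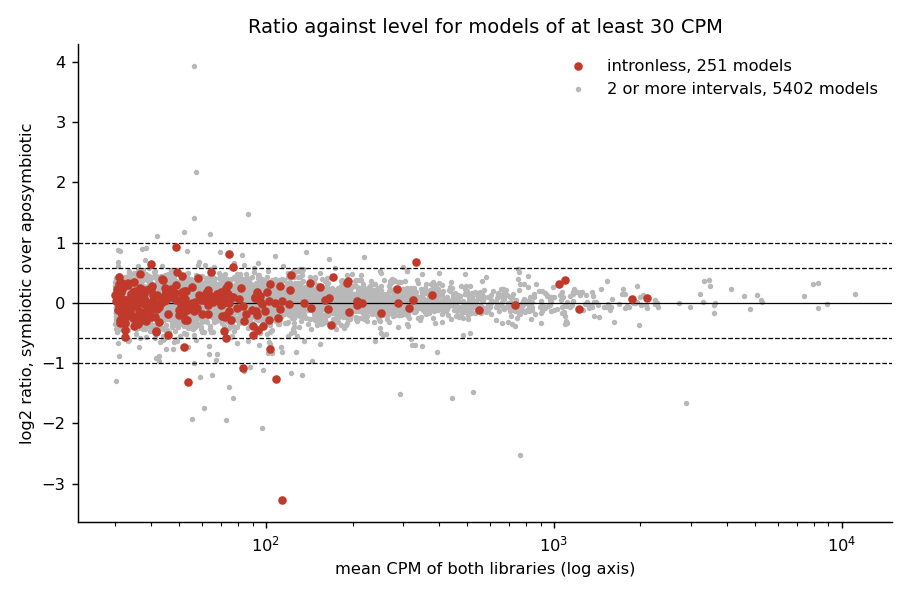
Log2 ratio of symbiotic over aposymbiotic against mean CPM of both libraries (log axis) for 251 intronless models (red) and 5402 models with 2 or more intervals (grey), each point a gene model. Dashed lines mark 1.5-fold and 2-fold; 4 red points lie below the lower 2-fold line and none above the upper one.

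Among the higher members, the first by the interval bound nearest to equality was cHydvir-v1B3C1_g34337 (scaffold 9, 16429968 to 16430855, plus strand, 888 nt). It had 442 symbiotic and 187 aposymbiotic counts, or 64.0 and 33.8 CPM, a 1.91-fold difference (1.61 to 2.28). Its nearest neighbour, on the same strand 5962 bp upstream, had 382 symbiotic and 315 aposymbiotic counts and a log2 ratio of -0.03, and its own interval included equality. The second, cHydvir-v1B3C1_g25645 (scaffold 5, 13419276 to 13420100, plus strand, 825 nt), had 653 symbiotic and 299 aposymbiotic counts, a 1.76-fold difference (1.54 to 2.03). Next in rank, a model of 735 nt on scaffold 7 (17631892 to 17632626, minus strand) was the most abundant of those past 1.5-fold. It had 2806 symbiotic and 1422 aposymbiotic counts, a log2 ratio of 0.67 (0.58 to 0.77). Both of these genes lie inside another gene and are taken up again below.

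The remaining 2 members past 1.5-fold were a model of 1173 nt on scaffold 13 (11086992 to 11088164, minus strand) and a model of 885 nt on scaffold 7 (12197621 to 12198505, minus strand). The first had 637 symbiotic and 340 aposymbiotic counts, 1.51-fold (1.33 to 1.73), and the second 335 and 172, 1.57-fold (1.31 to 1.90). Each of the 5 shares its length with other single-interval models, 13 to 34 models per length; models were compared by length alone, without their sequence. Leaving out lengths shared by 10 or more models left 0 members at least 1.5-fold higher, and leaving out the 4 nested members left 3. Of the first 12 higher members, the other 7 had log2 ratios from 0.31 to 0.52. They include the abundant pair on scaffold 12 and a less abundant gene of 807 nt (14841527 to 14842333), with 399 symbiotic and 226 aposymbiotic counts, that lies 8584 bp from the 750 nt one on the same strand. On scaffold 13, neighbouring members of 1599 nt and 1704 nt, also of 1 strand (minus), stood 21607 bp from each other and had ratios of 0.48 and 0.43 on the log2 scale. Other neighbouring pairs of members had log2 ratios of opposite sign, such as those on scaffold 8 (-0.53 and 0.07) and on scaffold 9 (0.23 and -0.07).

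The widest difference of any member was in the opposite direction. Model cHydvir-v1B3C1_g27169 (scaffold 6, 7329019 to 7330005, plus strand, 987 nt) had 145 symbiotic and 1140 aposymbiotic counts, or 21.0 and 206 CPM. Its level was 9.69-fold lower in the symbiotic library (8.18 to 11.6). A model of the same strand ends 395 bp upstream of it and had 1556 symbiotic and 7239 aposymbiotic counts, 5.75-fold lower (5.45 to 6.08). That neighbour is listed with 3 intervals, but all 3 end at the same position and join into 1 block of 11097 nt, so it has no coding intron either and misses membership only by its alternative starts. The next model downstream, on the other strand 2035 bp away, had 127 symbiotic and 104 aposymbiotic counts and a log2 ratio of -0.02.

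Away from scaffold 6, 3 members were more than 2-fold lower in the symbiotic library. Model cHydvir-v1B3C1_g10458 (scaffold 13, 2832512 to 2837983, plus strand, 5472 nt), the second longest member, had 438 symbiotic and 849 aposymbiotic counts, a log2 ratio of -1.26 (-1.43 to -1.09). A model of 1194 nt on scaffold 1 (2197662 to 2198855, plus strand) had 211 symbiotic and 424 aposymbiotic counts, a log2 ratio of -1.31 (-1.56 to -1.07). On scaffold 3, a model of 1893 nt (13959337 to 13961229, minus strand) had 367 symbiotic and 629 aposymbiotic counts, 2.12-fold lower (1.86 to 2.42). Adjacent models of at least 10 CPM on either side of these 3 had log2 ratios from 0.05 to 0.30, so none of these 5 neighbours was lower in symbiotic polyps.

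Below 2-fold, 3 more members passed 1.5-fold. A model of 804 nt on scaffold 2 (5522463 to 5523266, plus strand) had 528 symbiotic and 723 aposymbiotic counts, 1.69-fold lower (1.51 to 1.90). A model of 1482 nt on scaffold 4 (12346758 to 12348239, plus strand) had 268 symbiotic and 358 aposymbiotic counts, 1.65-fold lower (1.41 to 1.94). Beside it on the opposite strand, 3109 bp away, an intronless model of 4044 nt below the level minimum had 46 symbiotic and 114 aposymbiotic counts and was 3.04-fold lower (2.16 to 4.42). The neighbour on its other side, nearer at 1521 bp and also on the opposite strand, was higher in the symbiotic library. That model of 1650 nt had 285 symbiotic and 191 aposymbiotic counts, a log2 ratio of 0.27 (0.0011 to 0.54). At the edge of the rule, a model of 2265 nt on scaffold 4 (1932717 to 1934981) had 398 symbiotic and 483 aposymbiotic counts and a log2 ratio of -0.59 (-0.78 to -0.39). The other 5 of the first 12 had log2 ratios from -0.56 to -0.45.

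**Figure D3:**
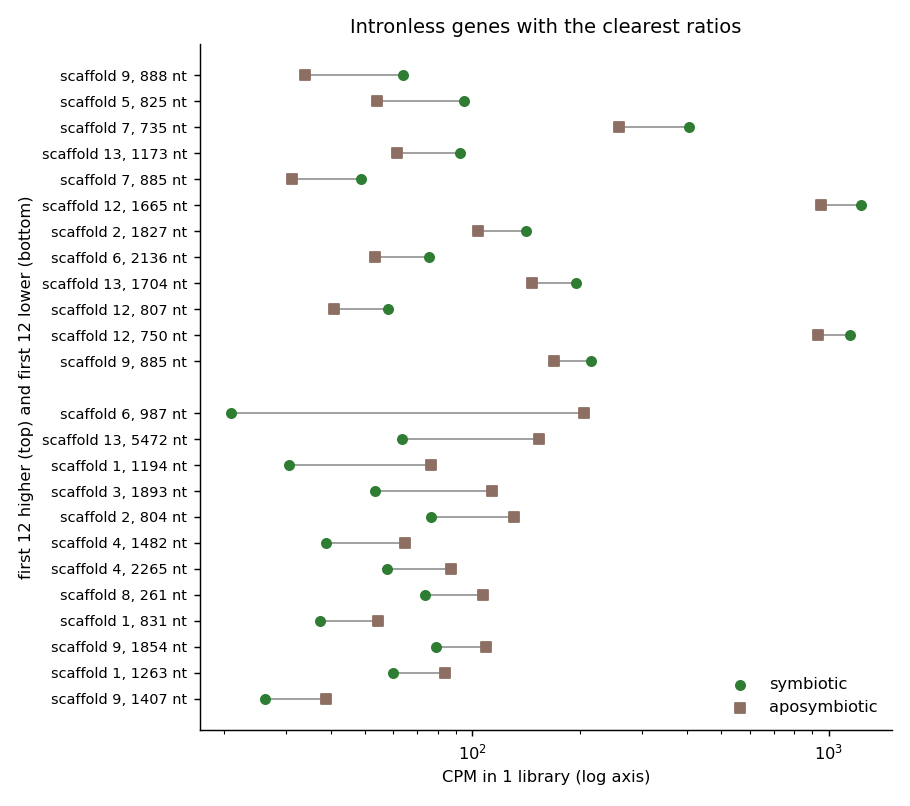
CPM in the symbiotic library (green circles) and in the aposymbiotic library (brown squares), on a log axis, for the 12 intronless genes ranked first as higher (upper block) and the 12 ranked first as lower (lower block) in the symbiotic library; a line joins the 2 values of a gene. The longest line is the 987 nt gene of scaffold 6, with 21.0 CPM in the symbiotic and 206 CPM in the aposymbiotic library.

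The share of members with a close same-strand neighbour, set against that of comparison models, depended on the distance used. Another model lay within 1 kb on the same strand for 39 members (15.5%), against 16.0% of comparison models and 36.0% of the 3610 single-interval models of 1 to under 30 CPM. Within 500 bp it was 18 members (7.17%), against 5.55% of comparison models, and within 2 kb 57 members (22.7%), against 28.0%. These differences were not tested. On the opposite strand, 22 members (8.76%) had a neighbour within 1 kb without overlap, 12 of them head to head and 10 tail to tail. Of the comparison models 9.26% had such a neighbour. No coding interval of a member overlapped one of another model.

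About as many close same-strand pairs lay on the same side of equality as on opposite sides. For the 32 pairs whose neighbour had at least 10 CPM, the median absolute difference in log2 ratio was 0.17, and 17 pairs lay on the same side of 0. Pearson's r across the 32 pairs was 0.904 and Spearman's rho 0.348; without the scaffold 6 pair r was 0.418 and rho 0.282 over 31 pairs, so the higher r rests on that pair. The shortest member, of 261 nt on scaffold 8, and the gene 891 bp downstream of it stood at the same ratio, -0.53 and -0.54. That neighbour had 2703 symbiotic and 3173 aposymbiotic counts. On scaffold 2, a member of 1827 nt (24632766 to 24634592, minus strand) had 977 symbiotic and 573 aposymbiotic counts, a log2 ratio of 0.46. The gene of 14061 nt that ends 155 bp upstream of it had 5823 symbiotic and 3788 aposymbiotic counts and a log2 ratio of 0.31. Untranslated regions are not in the models, so reads of one transcript that run into a neighbouring model would be counted there; this was not tested. For the 15 opposite-strand pairs with a neighbour of at least 10 CPM, r was 0.0686 and 7 pairs lay on the same side of 0.

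**Figure D4:**
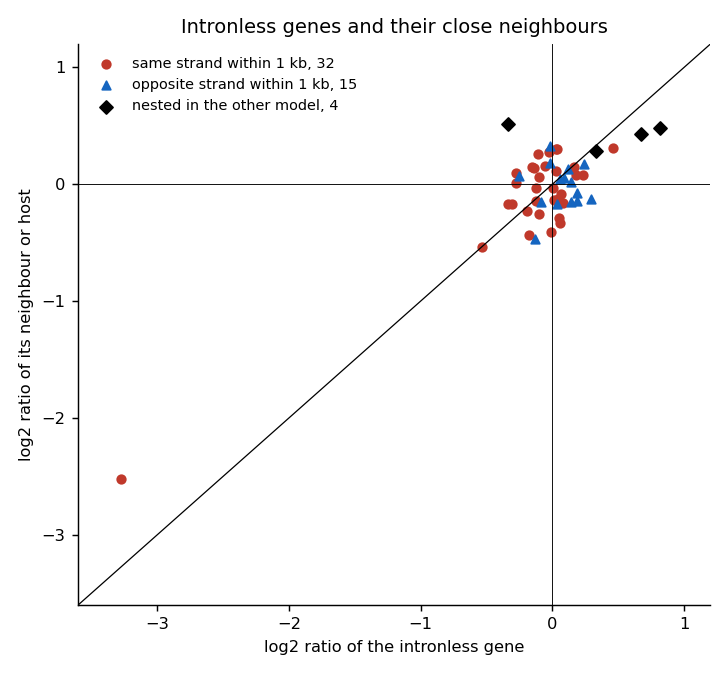
Log2 ratio of symbiotic over aposymbiotic of a neighbouring or enclosing gene (vertical) against that of the intronless gene (horizontal), for 32 same-strand pairs (red), 15 opposite-strand pairs (blue) and 4 nested pairs (black); the diagonal marks equal ratios. The scaffold 6 pair stands alone at the lower left, and 3 of the 4 nested pairs lie above 0 on both axes.

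Inside an intron of another gene lay 4 members (1.59%), in each case on the opposite strand. Being nested was also rare among comparison models, at 0.518%. Among single-interval models of 1 to under 30 CPM the share was 1.385%, near that of the members. The counting took no account of strand, but a nested intronless gene shares no coding interval with its host, so the 2 sets of counts come from different positions; unspliced host transcript would still be counted on the nested gene, and this was not tested. In 3 of the 4 pairs, both genes had higher CPM in the symbiotic library. The 825 nt gene on scaffold 5 lies in an intron of 4404 nt of a gene of 24 exon blocks (13409253 to 13431653) that had 382 symbiotic and 221 aposymbiotic counts and a log2 ratio of 0.48 (0.24 to 0.73), next to 0.82 for the nested gene. Per kilobase of coding length, the nested gene was 13.1 times its host. On scaffold 10, a member of 903 nt (1714400 to 1715302, plus strand) had 1461 symbiotic and 941 aposymbiotic counts, a log2 ratio of 0.33, and lies in an intron of 2215 nt. Its 10-exon host had 247 symbiotic and 164 aposymbiotic counts and a log2 ratio of 0.28 (-0.01 to 0.58).

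The scaffold 7 locus held 3 models of equal coding length. The nested intronless gene of 735 nt lies in an intron of 12406 nt of a 3-exon gene (17602392 to 17640149, plus strand) whose coding length is also 735 nt. That host had 4585 symbiotic and 2745 aposymbiotic counts, a log2 ratio of 0.43 (0.36 to 0.50), next to 0.67 (0.58 to 0.77) for the nested gene, and it was the higher of the 2 per kilobase, at 789 CPM per kb against 451. Another model of 735 nt (17639415 to 17640149, plus strand, 1 interval) ends where the host ends and overlaps its last exon, where a read pair that falls in both would be counted for neither; it had 38 symbiotic and 34 aposymbiotic counts. If the 3 models are near-identical in sequence, read pairs that align to more than 1 of them are missing from all 3 counts, so the values of this locus are uncertain.

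In the remaining nested pair the ratios had opposite signs. On scaffold 1, a member of 1170 nt (16027741 to 16028910, plus strand) lies within an intron of 294411 nt. It had 196 symbiotic and 200 aposymbiotic counts and a log2 ratio of -0.34. Its 3-exon host (15880448 to 16178476) had 152 symbiotic and 86 aposymbiotic counts and a log2 ratio of 0.51 (0.12 to 0.91).

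**Figure D5:**
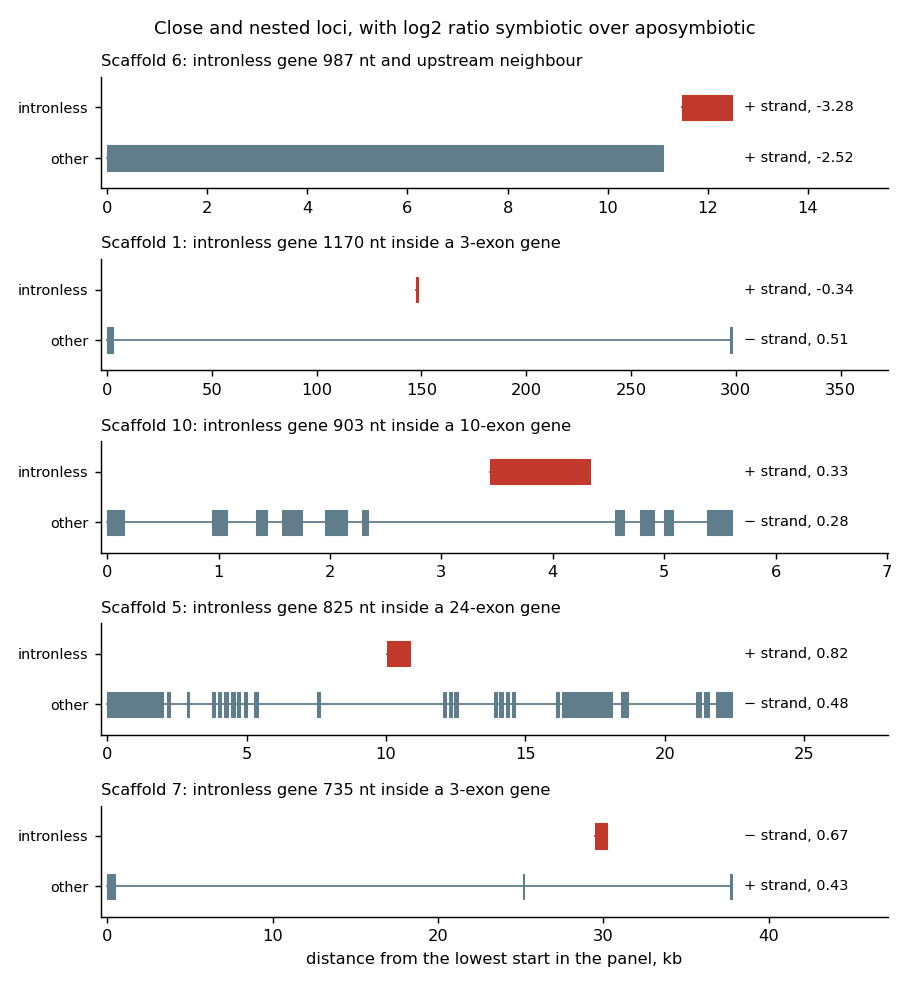
Maps of the scaffold 6 pair and of the 4 nested intronless genes, as distance in kb from the lowest start in each panel; red boxes are intronless genes, blue-grey boxes are the coding exons of the other gene, and a thin line spans its introns. Strand and log2 ratio of symbiotic over aposymbiotic stand at the right; each nested gene is on the strand opposite to its host, and the scaffold 6 genes share a strand.

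Some members had a model of exactly the same coding length nearby. This held for 16 members (6.37%) within 100 kb, in 9 cases (3.59%) a single-interval model. Among comparison models 2.33% had any equal-length model in that distance and 0.611% a single-interval one. Comparison models were longer, and the share among single-interval models of 1 to under 30 CPM was not computed. On scaffold 1, a member of 1764 nt (34432926 to 34434689, minus strand) stood between models of equal length and strand at 34423347 and 34447116. The member had 335 symbiotic and 227 aposymbiotic counts, the model at 34423347 had 88 and 67, and the model at 34447116 had 92 and 55. All 3 log2 ratios were above 0, at 0.25, 0.09 and 0.43. The interval of the member only just excluded equality (0.01 to 0.50). No interval is given for the other models, which had fewer counts. On scaffold 12, a member of 1095 nt (1062212 to 1063306, plus strand) had 292 symbiotic and 201 aposymbiotic counts, and its partner of the same strand at 1114302 had 137 symbiotic and 69 aposymbiotic counts. On scaffold 4, the 1482 nt member that was lower in the symbiotic library had a partner 12000 bp away on the other strand with 52 symbiotic and 55 aposymbiotic counts. In every pair with a single-interval partner, the member had the higher counts, which the level minimum favours.

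Length alone does not show a shared origin, and many lengths recur in the annotation. Only 20 members had a length found in no other single-interval model, 103 shared it with 1 to 9 others, and 128 with 10 or more. A row of 3 members of nearly equal length lay on the plus strand of scaffold 5: 2628 nt (5046685 to 5049312), 2634 nt (5089817 to 5092450) and 2652 nt (5109648 to 5112299). They had 218, 258 and 551 symbiotic counts and 204, 182 and 505 aposymbiotic counts, in that order. Their log2 ratios were -0.21, 0.20 and -0.18, and the intervals of the first and second included equality.

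The rule on shared lengths kept out 6 models of at least 30 CPM. The largest of them, of 786 nt on scaffold 13 (10205916 to 10206701, minus strand), had 1519 symbiotic and 1249 aposymbiotic counts, a log2 ratio of -0.02, and its length occurs in 145 single-interval models. The others were 1 more of 786 nt, 3 of 480 nt and 1 of 312 nt, with log2 ratios from -0.62 to 0.05. The lowest belonged to the 312 nt model on scaffold 4 (20319581 to 20319892), with 204 symbiotic and 254 aposymbiotic counts.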

How the data were processed

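Counts per gene model were deposited for 1 symbiotic and 1 aposymbiotic library. Per the file headers, the authors made these raw counts with featureCounts (Subread 2.1.1), counting read pairs over exons and summing per gene of a BRAKER3 annotation. No option for strand, for several alignments or for overlapping models was set, so sense and antisense reads were counted together. Coordinates and coding lengths are those of the annotation in the deposited table. The submitters' processing notes also name STAR 2.7.11b, deepTools 3.5.6 and fastp 1.1.0. The labels' molecule field says polyA RNA, whereas their protocol describes total RNA, which was followed. No reference genome was used and no sequence is shown. The gene lists that needed names could not be formed.

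CPM was computed on library totals. Log2 ratios used TMM factors (edgeR 4.0.16, R 4.3.3; 0.996 symbiotic, 1.00 aposymbiotic, models of at least 1 CPM) and a prior count of 0.5, so a ratio differs slightly from that of the printed CPM. Intervals are exact 95% Clopper-Pearson intervals, conditional on the sum of both counts. A call needed a fold of 2 or 1.5 and an interval that excluded equality. Named genes were the first 12 per direction by the interval bound nearest to equality, the 8 most abundant, the 5 highest per kb, the 4 longest and shortest and 3 on each side of the minimum; loci named for neighbours, hosts or equal lengths were chosen after their values were seen. Members and rules were chosen with earlier results of these data known. The calculation was tested on simulated data. The software was matplotlib 3.10.9, scipy 1.17.1, numpy 2.4.6 and pandas 2.3.3 under Python 3.11.15.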

Additional observations from a re-analysis of the deposited data

How the results depend on the processing

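Under the 4 other scalings, a prior count of 5, no interval and a stricter interval, the counts past 2-fold stayed at 0 higher and 4 lower, and those past 1.5-fold at 5 higher and 6 or 7 lower. Every member had at least 145 counts in each library, so dropping or tightening the interval could hardly alter the number past either fold. The median log2 ratio of members ran from 0.01 to 0.05 over all settings tried. The level minimum set how many genes entered. At 20 CPM (411 members) 9 were at least 1.5-fold higher and 12 lower. At 50 CPM (128) 3 were higher, and at 100 CPM (44) 1 was higher and 3 lower at 1.5-fold and 2 lower at 2-fold. Leaving out lengths shared by 10 or more models kept 109 members, with 0 higher and 3 lower at 1.5-fold and 1 lower at 2-fold. The share of all models past each fold was computed for the main settings only. Counts at a changed minimum or member set thus have no background beside them. Without members that have a same-strand neighbour within 1 kb or an overlap, 3 were higher at 1.5-fold, and likewise 3 without the 4 nested members, an alternative chosen after seeing the data. With the 21 one-block models, also added later, 5 were at least 2-fold lower. Within 500 bp, 18 members (7.17%) had a same-strand neighbour, against 5.55% of comparison models. Without the 100 largest models, members took 2.50% of the symbiotic and 2.49% of the aposymbiotic total. The difference in median log2 ratio between members and comparison models was 0.02, and it was 0.02 at matched length classes, -0.0035 at 50 CPM and 0.02 at 100 CPM. Of 120 alternative ratios of the 24 top-ranked genes, all stayed within their counting interval. Each other scaling moves all ratios by the same small amount, and a prior of 5 is small beside these counts. This outcome therefore says little about how firm the ratios are. No paired analysis was possible because each condition had 1 library. Depth limits single genes near 30 CPM most, where the lowest aposymbiotic count of a member was 146.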
